A study of Homo sapiens with 48 samples.

Results

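The 4 libraries described here come from Kelly cells, a human neuroblastoma cell line, grown in DMSO and harvested before any transcription block, 2 libraries after 3 days and 2 after 6 days. They were chosen by their titles alone (Kelly, DMSO, 0 h of actinomycin D) and are 4 of the 48 libraries of the study. The study crossed 2 MYCN-amplified neuroblastoma lines, Kelly and NGP, with 8 µM STM2457, an inhibitor of the RNA methyltransferase METTL3, or its solvent DMSO for 3 or 6 days, and then with 10 µg/ml of actinomycin D, which stops transcription, for 0, 3 or 6 h. Both groups compared here share the line, the wild-type genotype named in the labels, the solvent and the medium, RPMI1640 with heat-inactivated serum, and they differ by the label only in the days of culture. The labels do not state the DMSO concentration, the plating density, any change of medium or any passage between day 3 and day 6, and they leave unsaid whether the replicates were grown as separate cultures. The p-values therefore rest on the spread between libraries of the same group, which may be technical. For Kelly that spread was estimated over all 24 Kelly libraries fitted together, including those given STM2457 or actinomycin D. The days of culture and anything else that differed between the harvests cannot be told apart.

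Neuroblastoma arises from the sympathetic nervous system, and its cells in culture keep parts of the sympathoadrenal programme: a set of mutually reinforcing transcription factors (HAND2, GATA3 and ISL1 among them), catecholamine enzymes, and neuronal cytoskeleton. Cells that divide need a steady supply of replication factors and histones, made in S phase under E2F factors, and of mitotic proteins, made later in the cycle under the DREAM and MuvB complexes. Growing cells also take up glucose, build sterols and keep chaperones at work, and neuroblastoma cells can leave the cycle and take on more neuronal or more mesenchymal features.

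The question is what changed in these solvent-treated cultures between day 3 and day 6. The 4 libraries held 13807701 to 19291613 fragments in protein-coding genes. The spike-ins, synthetic ERCC RNAs added to the samples, took 0.381 and 0.382% of fragments at 3 days and 0.314 and 0.306% at 6 days. Mitochondrial genes took 5.86 and 5.32% against 6.70 and 7.38%, and 14351 and 14522 against 15214 and 15200 genes had at least 1 fragment. All 10 markers of adrenergic neuroblastoma were well counted, from ISL1 at a lowest level of 73.7 CPM (fragment counts relative to a library size scaled by TMM) to MYCN at a highest level of 6035 CPM. Markers of other cells were rare. 5 of the blood cell genes (CD14, HBB, HBA1 and CD3E among them), the Schwann cell gene CDH19, the epithelial gene CDH1 and the fibroblast gene POSTN had no fragment in any of the 4 libraries. The summed level of the 8 fibroblast markers, however, went from 5.84 and 6.22 to 44.0 and 43.6 CPM without that scaling, most of it COL1A1. That of the 6 epithelial markers went from 2.06 and 4.93 to 9.33 and 11.4, that of the 7 blood cell markers from 5.14 and 1.14 to 6.69 and 10.6, that of the 5 Schwann cell markers counted from 1.16 and 3.57 to 6.48 and 4.92, and that of the 6 endothelial markers from 2.70 and 3.64 to 3.94 and 5.58.

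Of 16759 genes tested, 1428 (8.52%) passed edgeR's quasi-likelihood test at a Benjamini-Hochberg adjusted p of 0.05: 466 (2.78%) were higher at 6 days and 962 (5.74%) lower. Most differences were small. The median absolute log2 difference of the called genes was 0.55, and 83.2% differed by less than 2-fold. Of the genes past 2-fold, 147 were higher and 93 lower. The 2 groups did not overlap in 1427 of the 1428, the exception being RPS29. Among all genes tested the 6-day libraries were both above the 3-day ones in 22.7% and both below in 25.0%. TMM scaling sets the typical gene to no difference, and in bulk RNA a smaller number of cells of one kind and less RNA per cell cannot be told apart.

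The split between higher and lower depends on that scaling. Higher genes were 32.6% of the calls with TMM, 49.1% with library size only and 19.6% once a trend on gene length had been removed. Scaled to the ERCC spike-ins, the typical gene was 0.35 (1.27-fold) higher at 6 days, 2820 genes passed (16.8%) and 94.0% of them were higher (15.8% of all genes tested, against 1.01% lower). All 466 higher genes were still called higher there, which the upward shift of all genes nearly ensures. Of the 962 lower genes, 723 kept their sign, 170 of them past the threshold. Differences below are relative to the typical gene, as log2 of 6 days minus 3 days ± SE, with edgeR's adjusted p.

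Among called genes at a mean level of 10 CPM or more, the 12 largest rises included 2 collagen genes, a receptor and a lipid carrier. COL1A1, the main chain of type I collagen (GRCh38 chromosome 17, 50183289 to 50201632), stood at 3.65 and 4.96 CPM at 3 days and 37.7 and 36.0 at 6 days. Both 6-day libraries were far above both 3-day ones, a difference of 3.10 ± 0.34 (8.57-fold, adjusted p 1.24e-14). COL1A1 is also 1 of the 8 fibroblast markers above, and the part of other cells in this result was not tested. The other 7 markers together had 32 and 15 fragments at 3 days and 53 and 55 at 6 days, and none of them passed the test. NGFR, the low-affinity neurotrophin receptor, was at 4.39 and 3.58 CPM at 3 days and 23.9 and 25.4 at 6 days, again without overlap (2.63 ± 0.43, adjusted p 4.75e-07). APOE, a lipid carrier, was at 7.73 and 4.34 CPM at 3 days and 41.1 and 28.6 at 6 days (2.53 ± 0.33, adjusted p 7.18e-11). LGALS3BP, a secreted glycoprotein, rose by 2.45 ± 0.49, COL5A1, a fibrillar collagen, by 1.97 ± 0.28, and ECEL1, a peptidase of neurons, by 1.92 ± 0.33.

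The rest of these 12 rises were PYGM, the muscle form of glycogen phosphorylase (2.04 ± 0.50), JAKMIP3 (2.01 ± 0.38), REEP6 (1.91 ± 0.29), WIPF3 (1.86 ± 0.43), the proteoglycan SPOCK2 (2.28 ± 0.49) and the zinc finger gene ZNF862 (2.02 ± 0.51). SPOCK2 was no longer called without 6-day replicate 1 (1.77) and ZNF862 not without 3-day replicate 1 (1.71).

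Of the 12 largest falls among called genes at a mean level of 10 CPM or more, 4 in receptors or an adaptor are given first. STRA6, the cell-surface receptor that takes up vitamin A from its carrier protein (chromosome 15, 74179466 to 74212267), was at 84.5 and 84.9 CPM at 3 days and 9.66 and 13.6 at 6 days. The 3-day libraries were nearly equal and far above either 6-day library (-2.88 ± 0.16, 7.35-fold lower, adjusted p 2.92e-40). PLXNA2, a semaphorin receptor that guides axons (chromosome 1, 208022242 to 208244384), was at 202 and 219 CPM at 3 days and 41.1 and 41.4 at 6 days (-2.35 ± 0.12, adjusted p 1.87e-42). RET, the receptor kinase for the GDNF family (chromosome 10, 43077064 to 43130351), was at 191 and 189.6 CPM at 3 days and 35.9 and 51.0 at 6 days (-2.14 ± 0.11, adjusted p 7.64e-44). DOK4, an adaptor that binds activated RET, was at 415 and 404 CPM at 3 days and 105 and 108 at 6 days (-1.95 ± 0.090, adjusted p 9.82e-50). In all 4 genes the groups lay far apart, and none lost its call when a library was left out.

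**Figure D1:**
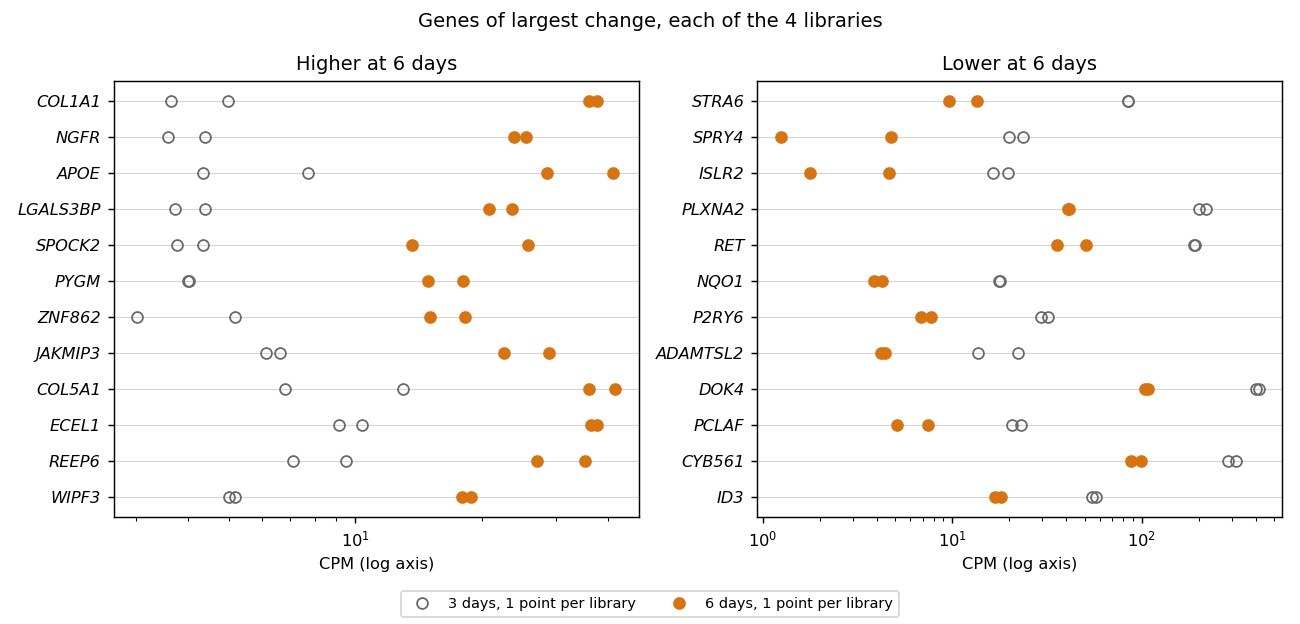
Level in CPM (log axis) of the 12 genes of largest rise and the 12 of largest fall that passed the test, at a mean level of 10 CPM or more, 1 point per library. In every gene both 6-day libraries lie on the same side of both 3-day libraries, and DOK4, at 415 and 404 CPM at 3 days, falls from the highest level of the 24.

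The rest of the 12 largest falls at that level are given by their differences. ISLR2, a neuronal membrane protein, fell (-2.47 ± 0.41), as did the nucleotide receptor P2RY6 (-2.07 ± 0.35), NQO1, a quinone reductase (-2.13 ± 0.38), ADAMTSL2 (-2.04 ± 0.43), the differentiation inhibitor ID3 (-1.68 ± 0.37) and CYB561, the electron carrier of catecholamine granules (-1.68 ± 0.11). PCLAF, a partner of the replication clamp, fell (-1.79 ± 0.31), but 28.8% of its exon bases are shared with another gene and no strand setting is stated for the counting. SPRY4, a feedback inhibitor of receptor kinase signalling, was at 23.5 and 19.9 CPM at 3 days and 4.74 and 1.25 at 6 days (-2.84 ± 0.66, adjusted p 0.000707), and it was not called without 6-day replicate 2 (-2.18).

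Genes of DNA replication were lower. All 36 genes of the list of DNA replication and S phase were lower at 6 days and 29 passed the test, none higher (all genes tested: 5.74% lower, 2.78% higher). Their median difference was -0.66, against 0 for all genes, and it was -0.28 with ERCC scaling, where 16 passed as lower and none as higher. Leaving out a library left 22 to 24 lower. CDC6, which loads the helicase on origins, was at 129.9 and 120.5 CPM at 3 days and 49.9 and 59.5 at 6 days (-1.20 ± 0.15, adjusted p 8.72e-12). GINS2, a subunit of the active helicase, was at 52.7 and 45.4 CPM at 3 days and 21.9 and 20.7 at 6 days (-1.20 ± 0.19, adjusted p 8.86e-08). Its partner GINS3 fell (-1.36 ± 0.34) and was not called without 6-day replicate 1 (-1.28). Of genes picked after their values were seen, the helicase subunit MCM5 was at 277 and 301 CPM at 3 days and 140.1 and 127 at 6 days (-1.12 ± 0.092), and RRM2, the regulated subunit of ribonucleotide reductase, at 459 and 475 CPM at 3 days and 219.5 and 235 at 6 days (-1.04 ± 0.074). The groups did not overlap in any of these 5 genes.

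The promoters of these genes carry the letters that E2F factors are known to bind. In RefSeq windows of GRCh38.p14, from 250 bases before to 50 after each start, 31 of the 36 genes had an entry and 20 of them (64.5%) held TTTCCCGC, TTTGGCGC, TTTCGCGC or TTTGCCGC on either strand. Over 13106 promoters of tested genes the share was 4.81%. Of the 31, 26 were called lower and 16 of these held a match, so matches were not confined to the called genes. For the 5 called genes of largest fall that hold a match (calls stable to leaving out a library, under 5% of exon bases shared), the last match in the window is printed. It is given with its flanks in the direction of transcription, the motif in capitals. MCM2 holds 2 matches in the window, the other genes printed here 1 each.
GINS2, chr16:85688972-85688991, minus strand, 31 bases before the start: gccgtgGCGGGAAAacggcg
CDC6, chr17:40287880-40287899, plus strand, just after the start: ttcggaTTTGGCGCgagcgc
UHRF1, chr19:4909481-4909500, plus strand, 14 bases before the start: gttttcGCGGGAAAaaaatc
MCM2, chr3:127598411-127598430, plus strand, just after the start: cttttcGCGCGAAAcctggt
CLSPN, chr1:35769970-35769989, minus strand, 5 bases before the start: ggctggGCGGGAAAgcaaga
A match describes letters only. UHRF1, which keeps DNA methylation through replication, fell (-0.77 ± 0.098), as did the helicase subunit MCM2 (-0.73 ± 0.069) and CLSPN, a checkpoint adaptor at the fork (-0.72 ± 0.10).

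Of 34 genes of G2 and mitosis, 33 were lower at 6 days and 17 passed, none higher, with a median of -0.41. With ERCC scaling the median was -0.024, none passed as lower and 1 as higher, and MKI67, KIF11 and CCNA2 were not called (adjusted p 0.217, 0.0711 and 0.127 in that edgeR fit). With TMM scaling there were 11 to 13 lower calls when a library was left out. MKI67, the proliferation antigen, was at 1325 and 1261 CPM at 3 days and 947 and 905 at 6 days (-0.48 ± 0.056, adjusted p 7.11e-13). KIF11, the motor that separates the spindle poles, was at 234 and 204 CPM at 3 days and 147 and 135 at 6 days (-0.64 ± 0.10, adjusted p 1.90e-07). CCNA2, cyclin A, was at 121 and 119 CPM at 3 days and 79.3 and 71.5 at 6 days (-0.67 ± 0.13), with 9.08% of its exon bases shared. PRC1, a crosslinker of spindle microtubules (-0.98 ± 0.32), shares 57.6% of its exon bases and was not called without any 1 of the 4 libraries (-1.09 to -0.82). The element TTTGAA, known as CHR and bound by the DREAM complex, stood in 18 of 29 promoters of the list (62.1%) against 10.8% of all. Of the 14 called lower, 11 held it. The element is shown for KIF11 and MKI67, picked because it lies close to the start there. For MKI67 it is the last of 2 matches. In other called genes the last match lay further away, 113 bases before the start in ASPM and 151 before it in TOP2A, and in CENPF 40 bases after it.
KIF11, chr10:92593096-92593113, plus strand, 28 bases before the start: ctctttTTCAAAttgagg
MKI67, chr10:128126441-128126458, minus strand, 29 bases before the start: ttttcgTTTGAAttgggc

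Regulators of G1 and cell cycle exit did not move as a group. Of 25, 1 rose and 3 fell, with a median of 0.052. RBL2, a pocket protein of resting cells, rose from 55.0 ± 0.547 to 80.9 ± 1.96 CPM (means ± SD, n = 2; 0.56 ± 0.14, adjusted p 0.00348). CCND1, cyclin D1, fell from 280.0 ± 16.7 to 173 ± 6.21 CPM (-0.70 ± 0.088, adjusted p 3.02e-11). CCND3 also fell (-1.12 ± 0.36) and was not called without 3-day replicate 2 (-0.83), 6-day replicate 1 (-1.09) or 6-day replicate 2 (-1.12). CDKN1A, the p21 inhibitor, was at 69.9 and 70.2 CPM at 3 days and 84.0 and 68.1 at 6 days, and its groups overlapped (0.12 ± 0.21, adjusted p 0.887).

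With TMM scaling the calls were mostly lower among ribosome assembly genes and mostly higher among ribosomal protein genes. Of 32 growth genes that MYC proteins are known to drive, 30 were lower at 6 days and 13 passed, none higher (median -0.29, but 0.090 with ERCC scaling, where 5 passed as higher and 1 as lower). The number of lower calls was 5 to 11 when a library was left out. ODC1, the first enzyme of polyamine synthesis, was at 342 and 360.4 CPM at 3 days and 193 and 214 at 6 days, with no overlap (-0.79 ± 0.084, adjusted p 4.66e-15). UTP20, which trims ribosomal RNA, was at 245 and 278 CPM at 3 days and 168 and 169 at 6 days (-0.63 ± 0.096, adjusted p 3.73e-08). GRWD1, a ribosome assembly factor, fell (-0.67 ± 0.19) and was not called without 3-day replicate 2 (-0.49), 6-day replicate 1 (-0.67) or 6-day replicate 2 (-0.63). MYCN itself (chromosome 2, 15940550 to 15947007), the amplified driver of the line, was at 5533 and 6035 CPM at 3 days and 4593 and 4370 at 6 days (-0.37 ± 0.047, adjusted p 7.01e-11), while with ERCC scaling its difference was 0.013.

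Of 33 cytosolic ribosomal protein and elongation factor genes, 28 were higher at 6 days, 15 passed as higher and 1 as lower, with a median of 0.17 and 11 to 16 higher calls when a library was left out. RPL5, a protein of the large subunit, was at 1573 and 1600 CPM at 3 days and 2208 and 2110 at 6 days (0.44 ± 0.046, adjusted p 9.83e-16), and RPL4 of the same subunit at 1383 and 1392 CPM at 3 days and 1889 and 1786 at 6 days (0.41 ± 0.047). The 1 lower call, RPS29, rests on 1 library: it was at 1130 and 81.3 CPM at 3 days and 172 and 84.7 at 6 days, so that the groups overlap, and without 3-day replicate 1 its difference was 0.68. Ribosomal protein genes have many near-identical pseudogene copies, and how reads that match several places were treated is not given in the sources used here.

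**Figure D2:**
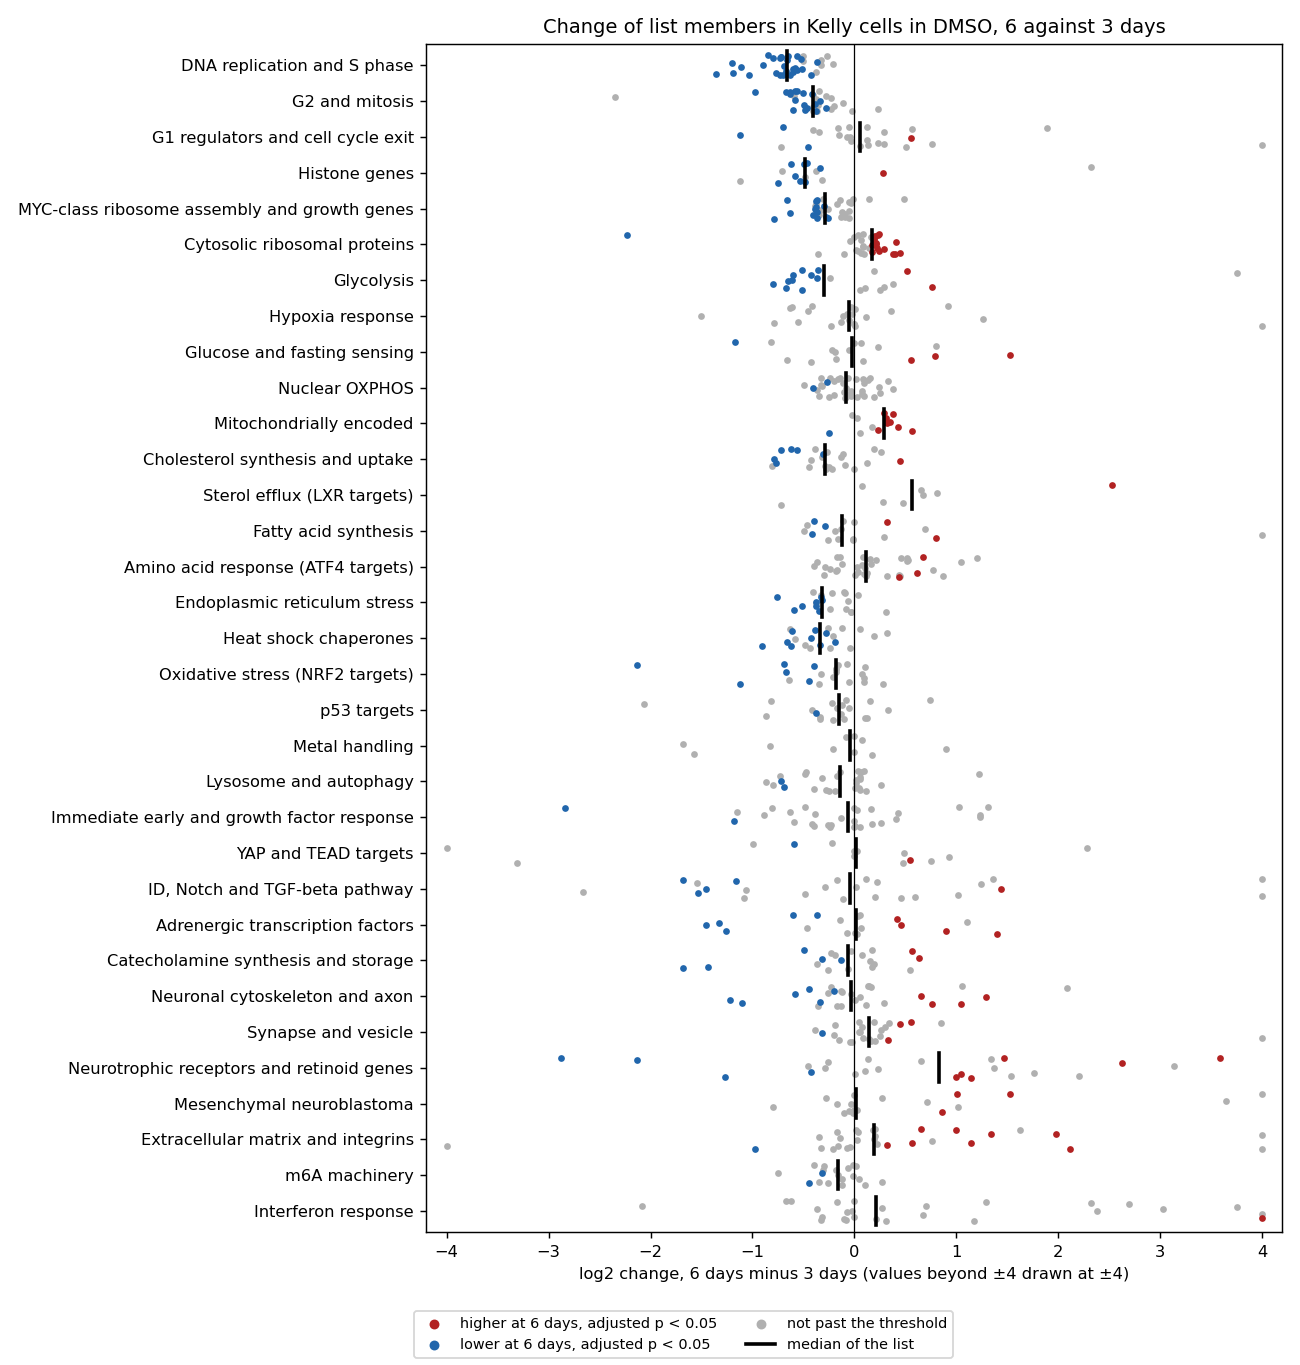
Log2 difference of each member of 33 gene lists, 6 days minus 3 days, 1 point per gene, with the median of each list as a bar; coloured points passed an adjusted p of 0.05. With TMM scaling replication, mitosis, chaperone and ER genes lie mostly to the left of 0 (the chaperone and ER medians lie above 0 with ERCC scaling), ribosomal protein and mitochondrially encoded genes to the right, and the differentiation lists spread to both sides.

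Of 20 glycolytic genes 10 passed as lower and 2 as higher, with a median of -0.30 (0.082 with ERCC scaling, where 7 passed as higher and 2 as lower). LDHA, lactate dehydrogenase A, was at 369 and 383 CPM at 3 days and 219 and 213 at 6 days (-0.80 ± 0.083, adjusted p 8.65e-16). PKM, pyruvate kinase, was at 1062 and 1147 CPM at 3 days and 719 and 665 at 6 days (-0.67 ± 0.055, adjusted p 3.37e-23). SLC2A1, the basal glucose transporter, fell (-0.65 ± 0.14), and ENO1, TPI1, GPI and PGAM1 were called lower too. ALDOC, the neural aldolase, rose (0.77 ± 0.21) but not without 3-day replicate 1 (0.76) or 6-day replicate 2 (0.68). GAPDH, often taken as a constant reference, was at 2907 and 2946 CPM at 3 days and 2320 and 2207 at 6 days (-0.37 ± 0.039, adjusted p 2.06e-15), and ACTB at 2942 and 2990 CPM at 3 days and 2369 and 2274 at 6 days (-0.35 ± 0.037, adjusted p 2.03e-15). Their differences with ERCC scaling were 0.0099 and 0.027.

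Of 23 hypoxia genes none passed edgeR's threshold in either direction, with a median of -0.057. At an unadjusted p of 0.05, 1 did, and DESeq2 and limma-voom called 1 each. The nuclear genes of oxidative phosphorylation lay near the typical gene (2 lower and none higher of 37, median -0.083, but none lower and 13 higher with ERCC scaling). The 2 were NDUFA4 (-0.40 ± 0.14) and ATP5PB (-0.27 ± 0.091), and leaving out any 1 of the 4 libraries (-0.49 to -0.29) ended the first call and any 1 of the 4 libraries (-0.27 to -0.24) the second, which was 0.11 with ERCC scaling. Mitochondrially encoded genes, in contrast, were higher: 8 of 13 passed as higher and 1 as lower, with a median of 0.29 and 8 higher calls in every fit that left out a library. MT-CO2, a subunit of cytochrome oxidase, was at 4971 and 4718 CPM at 3 days and 6875 and 7446 at 6 days (0.56 ± 0.037, adjusted p 7.99e-32), and MT-ND4, a subunit of complex I, at 7292 and 6497 CPM at 3 days and 8686 and 9801 at 6 days (0.42 ± 0.042). The lower one, MT-ND1 (-0.25 ± 0.053), was not called without 3-day replicate 1 (-0.14) or 6-day replicate 1 (-0.18).

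Of 24 genes of cholesterol synthesis and uptake, 6 fell and 1 rose, with a median of -0.29 (0.093 with ERCC scaling, where 1 passed as lower and 1 as higher). HMGCS1, which makes the precursor of mevalonate, was at 161 and 186 CPM at 3 days and 100.4 and 103 at 6 days (-0.77 ± 0.10, adjusted p 6.47e-10). ACAT2 fell (-0.79 ± 0.17), with 22.2% of its exon bases shared, and IDI1 fell (-0.72 ± 0.17) but was not called without 6-day replicate 1 (-0.56). SREBF2, which codes for the factor that turns these genes on, was the 1 that rose (0.45 ± 0.071). The sterol element TCACNCCAC stood in 1 of 18 promoters of the list (5.56%, all promoters 1.14%), that of SREBF2. Of 8 sterol efflux genes only APOE passed. Of 18 fatty acid synthesis genes, 3 fell, among them ACLY (-0.40 ± 0.061) and FABP5 (-0.41 ± 0.095, not called without 3-day replicate 2 (-0.35)), and 2 rose, among them ACACB (0.80 ± 0.26), which was not called without any 1 of the 4 libraries (0.68 to 0.96). With ERCC scaling 5 of the 18 passed as higher and none as lower, and ACLY and FABP5 were at -0.019 and -0.033.

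Of 16 genes that sense glucose or fasting, 3 rose and 1 fell. KLF15, a fasting-induced factor, was at 18.7 and 21.9 CPM at 3 days and 63.4 and 53.4 at 6 days and rose without overlap (1.53 ± 0.29, adjusted p 1.61e-05). TXNIP, which is induced by glucose and restrains its uptake, was at 163 and 144 CPM at 3 days and 71.1 and 64.9 at 6 days (-1.17 ± 0.20, adjusted p 1.45e-06). The mitochondrial PCK2 rose (0.79 ± 0.22) but was not called without 3-day replicate 1 (0.69) or 6-day replicate 1 (0.45). Of 36 targets of the amino acid response under ATF4, 26 were higher by sign but only 3 passed, none lower (median 0.12), against 15 higher with ERCC scaling. ASNS, asparagine synthetase, was at 88.1 and 104 CPM at 3 days and 156 and 150.2 at 6 days (0.67 ± 0.12, adjusted p 2.45e-06). The calls of ALDH1L2 (0.61 ± 0.20) and PYCR1 (0.43 ± 0.12, 14.1% of exon bases shared) were lost without 3-day replicate 1 (0.69), 3-day replicate 2 (0.57) or 6-day replicate 1 (0.52) for the first and without 3-day replicate 2 (0.39) or 6-day replicate 2 (0.43) for the second.

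Of 21 heat shock chaperones 9 were lower and none higher (median -0.34, but 0.044 with ERCC scaling, where 5 passed as higher and 4 as lower), with 5 to 9 lower calls when a library was left out. HSPA8, the constitutive Hsp70 (chromosome 11, 123057489 to 123063230), was at 1677 and 1718 CPM at 3 days and 917 and 890.3 at 6 days, both 6-day libraries far below both 3-day ones (-0.91 ± 0.052, adjusted p 4.79e-39). HSP90AA1, the inducible Hsp90, was at 1611 and 1702 CPM at 3 days and 1052 and 1043 at 6 days (-0.66 ± 0.047, adjusted p 1.01e-28). DNAJA1, a co-chaperone of HSPA8, was at 443 and 508 CPM at 3 days and 316 and 303 at 6 days (-0.62 ± 0.071, adjusted p 3.78e-13). Of 21 genes of endoplasmic reticulum stress 8 were lower and none higher (median -0.32, 4 to 7 lower when a library was left out). With ERCC scaling the median was 0.059, none passed as lower and 2 as higher, and HSPA5 was not called (adjusted p 0.278 in that edgeR fit). HSPA5, the chaperone BiP of the reticulum (chromosome 9, 125234853 to 125241343), was at 574 and 619 CPM at 3 days and 412 and 426 at 6 days (-0.51 ± 0.074, adjusted p 1.01e-08). CALR, the lectin chaperone calreticulin, fell (-0.38 ± 0.060). DNAJB11 (-0.59 ± 0.12, 14.5% of exon bases shared) and DNAJC3 (-0.76 ± 0.23) fell but were not called without 6-day replicate 2 (-0.38) for the first or without any 1 of the 4 libraries (-0.80 to -0.68) for the second.

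The 2 chaperone promoters below are printed whole because each holds the element that gives its family its name. The heat shock element, 3 alternating copies of a 5-base unit searched on both strands, stood in 4 of 19 heat shock promoters (21.1%) and 0.351% of all. Of the 9 called lower, 2 held it. The ER stress element, CCAAT and CCACG set 9 bases apart and searched on both strands, stood in 6 of 19 (31.6%) and 0.114% of all. Of the 7 called lower, 3 held it. Matches are in capitals, at 230 and 55 bases before the start in HSPA8 and at 66 before it in HSPA5.
HSPA8, chr11:123062087-123062386, minus strand: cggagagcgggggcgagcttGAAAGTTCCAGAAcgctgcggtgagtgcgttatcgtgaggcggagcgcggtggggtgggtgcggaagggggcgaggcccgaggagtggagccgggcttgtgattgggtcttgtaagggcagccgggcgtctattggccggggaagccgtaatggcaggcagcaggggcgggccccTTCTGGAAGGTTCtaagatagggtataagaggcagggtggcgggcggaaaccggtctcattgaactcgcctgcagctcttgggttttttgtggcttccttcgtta
HSPA5, chr9:125241294-125241593, minus strand: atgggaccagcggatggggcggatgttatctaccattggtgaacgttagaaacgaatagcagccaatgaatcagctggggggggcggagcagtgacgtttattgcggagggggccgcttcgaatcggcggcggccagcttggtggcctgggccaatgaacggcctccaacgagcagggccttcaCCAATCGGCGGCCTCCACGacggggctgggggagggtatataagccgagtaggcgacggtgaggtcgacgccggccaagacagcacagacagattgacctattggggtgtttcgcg

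Of 21 targets of NRF2, the factor that answers oxidative stress, 6 fell and none rose (median -0.18, but 0.20 with ERCC scaling, where 2 passed as lower and 5 as higher). NQO1 was at 17.9 and 17.8 CPM at 3 days and 3.88 and 4.28 at 6 days (-2.13 ± 0.38, adjusted p 3.91e-06). GCLM, a subunit of the enzyme that starts glutathione synthesis, fell (-1.12 ± 0.31) and was not called without 3-day replicate 2 (-0.66), 6-day replicate 1 (-1.23) or 6-day replicate 2 (-0.98). SQSTM1, the autophagy receptor p62, fell (-0.69 ± 0.21), shares 22.4% of its exon bases and was not called without 3-day replicate 2 (-0.50), 6-day replicate 1 (-0.82) or 6-day replicate 2 (-0.54). It was 1 of 2 genes of the 27 of lysosome and autophagy that passed, the other being ATP6V0D1 of the proton pump (-0.72 ± 0.24), not called without 3-day replicate 1 (-0.75), 3-day replicate 2 (-0.66) or 6-day replicate 1 (-0.47). Of 20 p53 targets MDM2 alone passed (-0.38 ± 0.096, not called without 3-day replicate 1 (-0.29)), and of 10 metal-handling genes none passed in either direction by edgeR, with 1 at an unadjusted p of 0.05, 1 called by DESeq2 and 1 by limma-voom. With ERCC scaling MDM2 was at -0.00081, without a call.

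Of 18 adrenergic transcription factors, 5 fell and 4 rose, with counts of 5 lower and 3 or 4 higher when a library was left out and 4 lower and 9 higher with ERCC scaling. HAND1 was at 285 and 271 CPM at 3 days and 111 and 109.6 at 6 days (-1.33 ± 0.13, adjusted p 1.07e-17), and TBX2, a repressor of the T-box family, at 262 and 285 CPM at 3 days and 108 and 121 at 6 days (-1.26 ± 0.12). Both fell by more than 2-fold without overlap. In the other direction EYA1 was at 239.8 and 227 CPM at 3 days and 429 and 439 at 6 days (0.90 ± 0.097, adjusted p 1.33e-14), HAND2, a member of the core circuit, rose by 0.41 ± 0.060 and TFAP2B by 0.46 ± 0.087. INSM1, a factor of neuroendocrine cells, was at 18.2 and 9.79 CPM at 3 days and 39.4 and 34.3 at 6 days (1.40 ± 0.47) and was not called without 3-day replicate 2 (1.03), 6-day replicate 1 (1.31) or 6-day replicate 2 (1.51). GATA2 fell (-0.60 ± 0.074).

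Of 19 genes of catecholamine synthesis and storage 5 fell and 2 rose (median -0.064), against 2 lower and 7 higher with ERCC scaling. SLC6A2, the noradrenaline transporter, was at 122 and 126 CPM at 3 days and 45.6 and 46.1 at 6 days (-1.44 ± 0.13, adjusted p 1.99e-19). CYB561 was at 285 and 316 CPM at 3 days and 99.3 and 88.0 at 6 days (-1.68 ± 0.11, adjusted p 8.43e-32), and DBH, which makes noradrenaline, fell (-0.32 ± 0.051). TH, the first enzyme of the pathway, was at 392 and 366 CPM at 3 days and 331 and 315 at 6 days, without a call (-0.23 ± 0.080, adjusted p 0.0507). MAOA, which breaks catecholamines down, rose by 0.57 ± 0.072. The granule chaperone SCG5 rose by 0.64 ± 0.20 and was not called without 3-day replicate 2 (0.45) or 6-day replicate 1 (0.51).

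Of 27 genes of the neuronal cytoskeleton and axon, 6 fell and 4 rose. With ERCC scaling the balance turned, with 3 lower, 15 higher and a median of 0.35. NEFH, the heavy neurofilament chain, was at 1026 and 1048 CPM at 3 days and 493 and 471 at 6 days (-1.11 ± 0.062, adjusted p 1.87e-39). ELAVL4, a neuronal RNA-binding protein, was at 55.7 and 51.1 CPM at 3 days and 23.0 and 23.0 at 6 days (-1.22 ± 0.19, adjusted p 1.25e-07), and MAP2, a dendritic protein, fell (-0.58 ± 0.075). STMN2, a growth-cone protein that frees tubulin, was at 187 and 190.4 CPM at 3 days and 451 and 476 at 6 days (1.29 ± 0.082, adjusted p 1.19e-33). DCX, found in young migrating neurons, was at 22.2 and 19.0 CPM at 3 days and 44.1 and 41.2 at 6 days (1.05 ± 0.19), MAPT, the tau protein of axons, rose by 0.76 ± 0.15 and CNTN1, an axonal adhesion protein, by 0.65 ± 0.083. All of these kept their call when a library was left out. Of 25 synaptic genes 3 rose and 1 fell, but with a library left out at most 1 rose, and with ERCC scaling 12 rose and none fell. Among them were CPLX1 (0.55 ± 0.19) and SYT1 (0.45 ± 0.15), and leaving out 3-day replicate 1 (0.61), 3-day replicate 2 (0.53) or 6-day replicate 1 (0.37) ended the first call and any 1 of the 4 libraries (0.38 to 0.55) the second.

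The list of neurotrophic receptors and retinoid genes held large differences in both directions: 6 of 24 rose and 4 fell, with a median of 0.83 over all members tested and 0.11 over those whose mean level was 10 CPM or more. On the side of the GDNF family, RET fell as given above, and its co-receptor GFRA2 was at 72.8 and 66.4 CPM at 3 days and 31.5 and 26.3 at 6 days (-1.27 ± 0.16, adjusted p 6.67e-11). On the neurotrophin side NGFR rose as given above. NTRK3, the receptor for neurotrophin-3, had 2 and 5 fragments at 3 days and 54 and 48 at 6 days and was not called without 3-day replicate 1 (3.04). Of the retinoid genes, the receptor STRA6 fell as given above, while carriers of retinoic acid inside the cell rose. CRABP1 was at 53.6 and 53.5 CPM at 3 days and 109 and 112 at 6 days (1.05 ± 0.14, adjusted p 1.03e-10). CRABP2 rose by 1.46 ± 0.34 but was not called without 3-day replicate 1 (1.21).

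Matrix genes rose more often than they fell. Of 30 genes of extracellular matrix and integrins 8 rose and 1 fell (26.7% higher, all genes tested 2.78%), and 5 to 7 rose when a library was left out. With ERCC scaling 16 rose and 1 fell. HSPG2, the basement membrane proteoglycan perlecan, was at 40.3 and 48.3 CPM at 3 days and 122 and 103 at 6 days (1.34 ± 0.15, adjusted p 1.48e-13), with 11.7% of its exon bases shared. COL6A2, a chain of type VI collagen, was at 41.9 and 44.0 CPM at 3 days and 95.0 and 95.4 at 6 days (1.15 ± 0.15, adjusted p 1.38e-10), its partner COL6A1 rose by 1.00 ± 0.11, and COL5A1 was at 6.80 and 13.0 CPM at 3 days and 36.0 and 41.5 at 6 days (adjusted p 2.69e-09). ITGB5, an integrin chain, was the 1 that fell (-0.97 ± 0.11). Of 18 genes of the mesenchymal neuroblastoma state 3 rose and none fell, with a median of 0.015. TWIST1, a mesenchymal and neural crest factor, was at 77.2 and 69.7 CPM at 3 days and 132 and 135 at 6 days (0.86 ± 0.17, adjusted p 2.33e-05). CD44, a receptor for hyaluronan, was at 7.23 and 7.65 CPM at 3 days and 25.6 and 17.2 at 6 days (1.53 ± 0.32, adjusted p 0.000113). VIM, the filament protein vimentin, rose from 14.9 ± 0.0487 to 29.9 ± 8.23 CPM (means ± SD, n = 2; 1.01 ± 0.27) and was not called without 3-day replicate 1 (1.03), 3-day replicate 2 (1.02) or 6-day replicate 1 (0.71). The summed fibroblast markers given above moved with these genes, COL1A1 leading them, and their part in the result was not tested. 

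Of 24 genes of the ID, Notch and TGF-beta pathways, 4 fell (16.7%, all genes tested 5.74%) and 1, the receptor NOTCH3, rose (1.44 ± 0.40, not called without 3-day replicate 2 (1.21)). The inhibitors of differentiation ID3, at 57.5 and 54.6 CPM at 3 days and 16.9 and 18.1 at 6 days, and ID2, at 87.8 and 73.9 CPM at 3 days and 26.3 and 29.4 at 6 days, both fell (-1.68 ± 0.37 and -1.54 ± 0.31, adjusted p 0.000284 and 5.59e-05). Of 30 immediate early and growth factor response genes, SPRY4 and ETV1 fell and none rose. ETV1, an ETS factor, was at 23.9 and 27.1 CPM at 3 days and 13.8 and 8.50 at 6 days (-1.18 ± 0.31) and was not called without 3-day replicate 2 (-1.08) or 6-day replicate 2 (-0.87), nor was SPRY4 without 6-day replicate 2 (-2.18). Of 14 YAP and TEAD genes TEAD1 fell (-0.59 ± 0.13) and AMOT rose (0.54 ± 0.15), and leaving out 3-day replicate 1 (-0.44) ended the first call and 3-day replicate 1 (0.33) the second. Of 27 interferon genes BST2 alone passed, with 0 and 2 fragments at 3 days and 49 and 83 at 6 days, and was not called without 3-day replicate 1 (4.76) or 6-day replicate 2 (4.98). Of 19 genes of the m6A machinery, which STM2457 targets in the other cultures of the study, 2 fell: IGF2BP1, an m6A reader, at 1001 and 1005 CPM at 3 days and 715 and 756 at 6 days (-0.45 ± 0.057, adjusted p 5.04e-11), and the reader YTHDC1 (-0.32 ± 0.11), which was not called without any 1 of the 4 libraries (-0.35 to -0.26) and was 0.060 with ERCC scaling. IGF2BP1 was at -0.066 with that scaling, without a call. METTL3 was at 46.5 and 53.1 CPM at 3 days and 48.3 and 54.5 at 6 days, its groups overlapping (0.045 ± 0.17, adjusted p 0.997), with 6.62% of its exon bases shared.

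The same 3 to 6 day comparison was made in separate Kelly DMSO libraries harvested after 3 h or 6 h in actinomycin D, 2 against 2 at each time. At 3 h 1936 genes (11.6%) passed, 4.34% of all tested as higher and 7.21% as lower, and at 6 h 2209 (13.2%), 5.07% as higher and 8.11% as lower. With ERCC scaling higher genes were 88.7% of 2752 calls at 3 h and 5.19% of 5356 at 6 h. The median difference of all genes with that scaling was 0.35 at 0 h, 0.28 at 3 h and -0.38 at 6 h. The shift that ERCC scaling brings was thus not the same in the 3 sets of libraries. Actinomycin D stops new transcription, so a level after it depends also on how fast that RNA is lost. Of the 466 genes higher at 0 h, 453 had the same sign at 3 h, 278 of them called, and 452 at 6 h, 250 of them called. Of the 962 lower genes, 924 had the same sign at 3 h, 682 of them called, and 890 at 6 h, 660 of them called. COL1A1 differed by 2.75 ± 0.33 and 2.01 ± 0.31 at 3 and 6 h, NGFR by 3.75 ± 0.46 and 3.12 ± 0.45, RET by -2.10 ± 0.11 and -1.83 ± 0.11, MCM5 by -1.29 ± 0.092 and -1.14 ± 0.092, HSPA8 by -0.99 ± 0.052 and -0.92 ± 0.052 and STMN2 by 1.36 ± 0.082 and 1.04 ± 0.081. All 13 mitochondrially encoded genes were called higher at both times, and of the 36 replication genes 27 and 26 were called lower and none higher.

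The difference between the 0 h and the later comparison was itself tested, a contrast chosen after the data had been seen. It passed for 42 genes (0.251%) against 3 h and 107 (0.638%) against 6 h. The differences are with TMM scaling, and no value of them with ERCC scaling is given here. The typical gene stood at 0.35 at 0 h, 0.28 at 3 h and -0.38 at 6 h with ERCC scaling. Differences between times may therefore depend on the scaling. MYCN went from lower to higher with TMM scaling: -0.37 ± 0.047 at 0 h, 0.037 ± 0.048 at 3 h and 0.51 ± 0.048 at 6 h (adjusted p of the difference from 0 h 7.69e-06 and 2.02e-24). At 0 h it was at 0.013 with ERCC scaling. TXNIP went from -1.17 ± 0.20 to 0.51 ± 0.22 and 0.53 ± 0.24, neither of the later values past the test (adjusted p of the difference 3.89e-05 and 8.20e-05). ID2 differed by 0.53 ± 0.35 at 6 h, without a call there (adjusted p of the difference 0.00430), IGF2, a growth factor gene with 70.7% of its exon bases shared, by 0.24 ± 0.058 (7.64e-11), and DOK4 by -1.07 ± 0.088 (2.33e-08). STRA6 and PLXNA2 stayed lower, at -1.83 ± 0.15 and -1.49 ± 0.12 at 6 h, but with TMM scaling less so than at 0 h (adjusted p of the difference 0.000556 and 0.000429). Of genes called lower at 0 h, 16 were called higher at 3 h and 22 at 6 h.

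**Figure D3:**
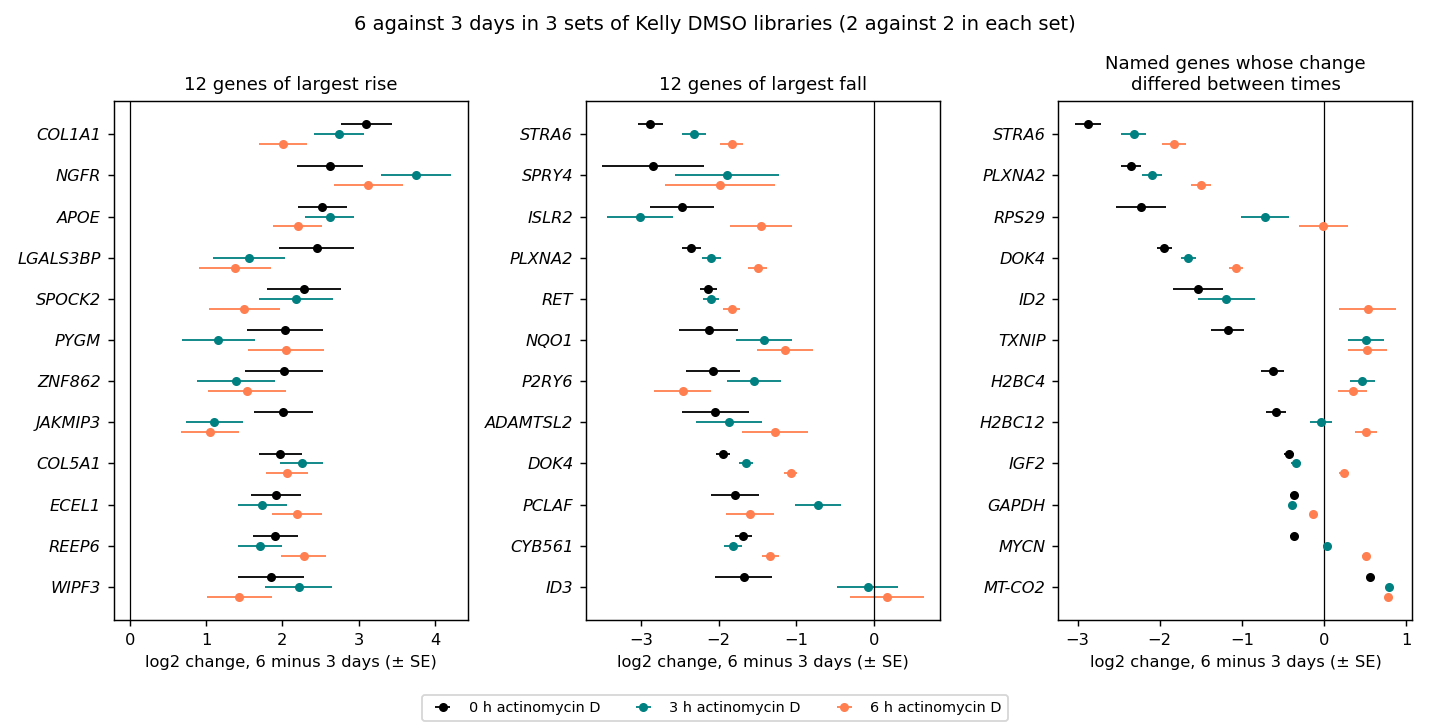
Log2 difference, 6 days minus 3 days, ± SE, in Kelly DMSO libraries after 0, 3 and 6 h of actinomycin D, for the 12 genes of largest rise, the 12 of largest fall and the named genes whose difference changed between times. All values are with TMM scaling. The 12 rises stay above 0 at all 3 times, while TXNIP, MYCN, H2BC4, H2BC12, ID2 and IGF2 lie below 0 at 0 h and above it at 6 h. With ERCC scaling the typical gene stood at 0.35 at 0 h and -0.38 at 6 h, so these turns of sign may depend on the scaling.

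Most of those reversals were histone genes. Replication-dependent histone genes are transcribed in S phase, and their mRNAs mostly end in a stem-loop in place of a poly(A) tail, so poly(A) selection, used here, recovers them only in part. At 0 h, of 56 such genes tested, taken by symbol after the pattern had been seen, 52 were lower at 6 days, 19 of them called, and none was called higher (median -0.54). At 3 h, 24 were called higher and 1 lower (median 0.55), and at 6 h 28 higher and 1 lower (median 0.88). Their summed level was 7956 and 8184 CPM at 3 days and 5588 and 5249 at 6 days before actinomycin D. After 3 h it was 537 and 511 against 797 and 778, and after 6 h 313 and 315 against 568 and 568. At each time the groups were apart, with the 3-day libraries higher at 0 h and lower after the block. These levels and calls are with TMM scaling, and their values with ERCC scaling are not given here. Of the 42 and 107 genes whose difference changed between times, 24 and 31 were among these 56. H2BC4 went from -0.63 ± 0.14 to 0.47 ± 0.15 and 0.35 ± 0.18, and H2BC12 from -0.59 ± 0.12 to -0.038 ± 0.13 and 0.51 ± 0.14. H2AX, a histone variant gene that also gives a polyadenylated mRNA, had values below 0 at all 3 times, the last without a call (-0.74 ± 0.18, -1.01 ± 0.18 and -0.25 ± 0.19).

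**Figure D4:**
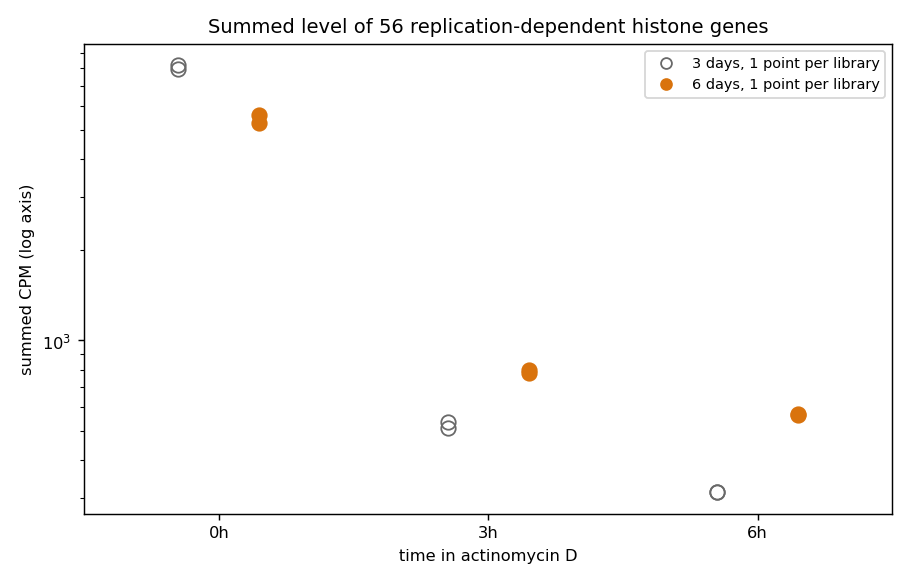
Summed CPM (log axis) of 56 replication-dependent histone genes in each library of Kelly DMSO cultures after 0, 3 and 6 h of actinomycin D. With TMM scaling the 3-day libraries are above the 6-day ones at 0 h (7956 and 8184 against 5588 and 5249) and below them at 3 and 6 h.

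In NGP, the other line, the same 4 libraries were made, and the difference between the lines' 3 to 6 day differences was tested in a joint fit of all 48 libraries. It passed for 507 of 17343 genes (2.92%), 207 with a more positive value in Kelly and 300 with a more negative one. With ERCC scaling 3254 passed, 97.8% of them more positive in Kelly. In 40 genes both lines were called with opposite signs. STRA6 fell in Kelly without a call in NGP, where it was at 46.9 and 41.1 CPM at 3 days and 37.0 and 37.4 at 6 days (-2.86 ± 0.16 against -0.24 ± 0.15, adjusted p of the difference 7.43e-15). With TMM scaling IGF2 fell in Kelly and rose in NGP, where it was at 721 and 764 CPM at 3 days and 1432 and 1673 at 6 days (-0.41 ± 0.069 against 1.06 ± 0.070, adjusted p 7.43e-19). In the Kelly edgeR fit with ERCC scaling IGF2 was at -0.043, without a call (adjusted p 0.731). HSP90AA1 fell less in Kelly than in NGP (-0.64 ± 0.038 against -1.38 ± 0.038, adjusted p 2.24e-17), as did SLIT3, a secreted guidance protein (-0.71 ± 0.068 against -1.93 ± 0.071, adjusted p 1.28e-15). EML5, which binds microtubules and shares 53.1% of its exon bases with a neighbour, fell in NGP without a call in Kelly (0.081 ± 0.061 against -1.07 ± 0.062, adjusted p 1.18e-16).

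Several of the Kelly patterns above differed from NGP by that test. With TMM scaling MYCN, at 0.013 in Kelly with ERCC scaling, fell in Kelly and rose in NGP (-0.35 ± 0.065 against 0.45 ± 0.065, adjusted p 8.23e-10), as did ODC1 (-0.77 ± 0.078 against 0.35 ± 0.077, adjusted p 4.02e-12) and TXNIP (-1.16 ± 0.26 against 1.27 ± 0.26, adjusted p 1.62e-06). ASNS rose less in Kelly (0.69 ± 0.11 against 1.61 ± 0.11, adjusted p 1.37e-05). Of the 36 ATF4 targets, 33 were called higher in NGP (of all genes tested there 8.01% were called, 3.56% higher and 4.45% lower), with a median of 1.23, against 3 with a median of 0.12 in Kelly. COL1A1 and STMN2 rose in Kelly without a call in NGP, and TWIST1 rose in Kelly and fell in NGP (3.12 ± 0.25 against 0.29 ± 0.21, 1.31 ± 0.083 against 0.23 ± 0.083 and 0.88 ± 0.12 against -0.55 ± 0.11), with adjusted p of 7.78e-10, 1.33e-10 and 9.35e-10. For CCNA2, LDHA, NEFH and HMGCS1 the test did not pass with TMM scaling, and the difference Kelly minus NGP was 0.25 ± 0.17, -0.11 ± 0.10, -0.27 ± 0.092 and 0.23 ± 0.14. Over all genes the median of that difference was 0.50 with ERCC scaling, against 0 with TMM, so these 4 results depend on the scaling. CCNA2 does not stand for its list. Of the 34 genes of G2 and mitosis the test passed for 13 (all genes tested 2.92%), each more positive in Kelly. In NGP 31 of the 34 were called lower (median -0.85), against 17 in Kelly (median -0.41).

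**Figure D5:**
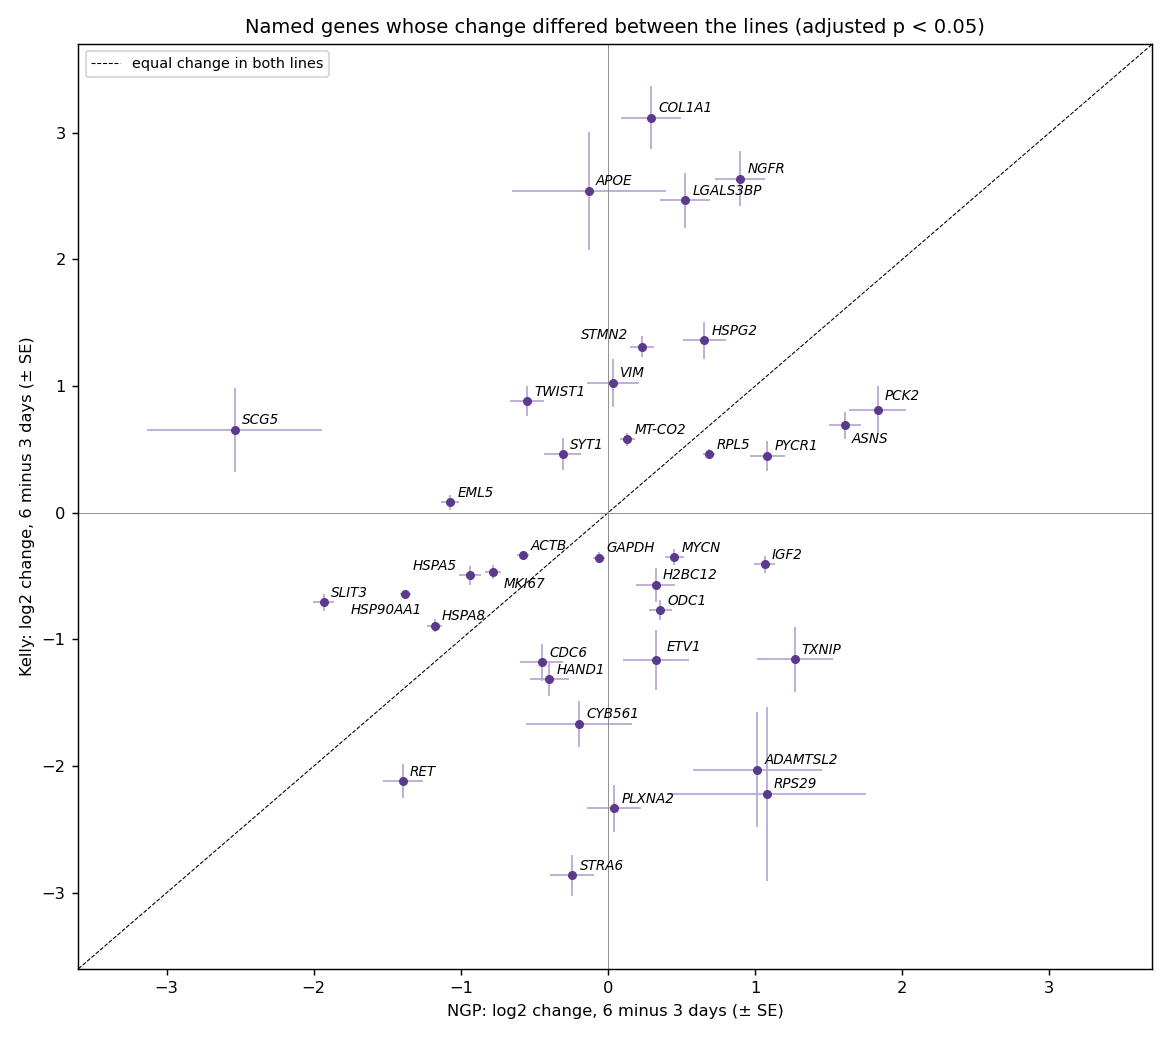
Log2 difference, 6 days minus 3 days, ± SE, in NGP (x axis) and Kelly (y axis) for the named genes whose difference between the lines passed an adjusted p of 0.05; the dashed line marks equal values. COL1A1, NGFR and APOE lie high above the line, and STRA6 and PLXNA2 far below it. With TMM scaling MYCN, ODC1, IGF2 and TXNIP fall in Kelly and rise in NGP, but with ERCC scaling MYCN was at 0.013 and IGF2 at -0.043 in Kelly. SCG5, APOE and CYB561 had few fragments in NGP.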

How the data were processed

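RNA was extracted with TRIzol, selected by poly(A) tail and made into libraries with a SMART cDNA kit, per the labels' protocols. The deposited values are raw counts of fragments per gene, unnormalized, made with featureCounts 1.5.3 on GENCODE release 33 protein-coding exons plus 92 ERCC sequences, per the file headers. FastQC 0.11.5, Trimmomatic 0.36, HISAT2 2.1.0, Subread 1.5.3 and the build GRCh38 are named in the submitters' processing notes. No strand setting is stated, so reads of overlapping genes cannot be told apart. The share of exon bases in common with other genes is not given above for every gene. It was 10.4% for CCND1, 8.38% for RBL2, 7.4% for RPL5 and 6.77% for STRA6. Some members of the lists are not reported here, and genes named by the rule below were not replaced where this applied to them.

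The 24 Kelly libraries were fitted together with edgeR 4.0.16 (R 4.3.3): TMM scaling without ERCC, filterByExpr with a minimum count of 10 and a minimum total of 15, 1 mean per group of 2 libraries, the quasi-likelihood test and Benjamini-Hochberg adjustment at 0.05 over all 16759 genes. SE is the absolute log2 difference divided by the square root of F. The difference between lines came from a joint fit of all 48 libraries (17343 genes). DESeq2 1.42.0, limma 3.58.1, other scalings, filters and library subsets were run as alternatives, of which edgeR without a separate dispersion trend, and the differences between actinomycin D times, were added after seeing the data. The members and gene lists were chosen with earlier results of these data known.

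The genes named are the 12 largest differences per direction among calls with a mean of at least 10 CPM and groups that do not overlap, up to 3 called members per list of the same level by size, MYCN, METTL3, MKI67, CDKN1A, TXNIP, GAPDH and ACTB, and the 5 genes of smallest adjusted p between lines. Further list members and the histone set were chosen after their values were seen. Simulated data for the Kelly comparison were fitted by edgeR without a separate dispersion trend, not by the reported fit. There, 32.8% of genes changed 1.5-fold, 59.7% changed 2-fold and 80.3% changed 4-fold were called, with 5 calls among the unchanged of 16759 genes. The simulated spread followed the trend with level alone, and changes were placed only in genes above a set expected count. These shares therefore do not measure the sensitivity or the error rate of the reported calls. The 2 libraries of each group differed by more than sampling noise (chi-square per degree of freedom 10.8 and 10.5).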

Additional observations from a re-analysis of the deposited data

Results flagged for a closer look

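The 3 to 6 day difference was not the same in Kelly and NGP for 37 of the named genes, by the test of the difference between lines in the joint edgeR fit with TMM scaling. With ERCC scaling the median Kelly minus NGP difference of all genes was 0.50, against 0 with TMM. The smaller negative values below, such as those of RPL5 and GAPDH, may therefore not hold with that scaling. In log2, Kelly minus NGP, it was more positive in Kelly for SCG5 (3.19), COL1A1 (2.83), APOE (2.67), LGALS3BP (1.94), NGFR (1.74), TWIST1 (1.43), SLIT3 (1.23), EML5 (1.15), STMN2 (1.08), VIM (0.99), SYT1 (0.77), HSP90AA1 (0.73), HSPG2 (0.71), MT-CO2 (0.45), HSPA5 (0.45), MKI67 (0.32), HSPA8 (0.29) and ACTB (0.24). It was more negative in Kelly for RPL5 (-0.23), GAPDH (-0.29), PYCR1 (-0.63), RET (-0.72), CDC6 (-0.73), MYCN (-0.80), H2BC12 (-0.89), HAND1 (-0.92), ASNS (-0.92), PCK2 (-1.03), ODC1 (-1.12), CYB561 (-1.47), IGF2 (-1.47), ETV1 (-1.49), PLXNA2 (-2.38), TXNIP (-2.43), STRA6 (-2.62), ADAMTSL2 (-3.04) and RPS29 (-3.30). RPS29 stood at 1130 CPM in Kelly 3-day replicate 1, and its Kelly difference was 0.68 without that library. Levels in NGP were low for SCG5 (2.19 and 1.69 CPM at 3 days, 0.39 and 0.26 at 6 days), APOE (2.73 and 1.10, then 1.99 and 1.48) and CYB561 (2.03 and 2.13, then 1.88 and 1.74). SCG5 was not called in Kelly in the joint edgeR fit (0.65 ± 0.33, adjusted p 0.310).

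Within Kelly, the 3 to 6 day difference before actinomycin D was not the same as in the libraries taken after it. Among named genes whose sign also turned, it differed against 3 h (0 h minus 3 h, log2) for H2BC4 (-1.09), TXNIP (-1.68) and MYCN (-0.40). It differed against 6 h for H2BC4 (-0.97), H2BC12 (-1.09), TXNIP (-1.70), ID2 (-2.06), MYCN (-0.87) and IGF2 (-0.67). All of these were lower before the block, relative to the later comparison, and the contrast was chosen after the data had been seen. The values and turns of sign are with TMM scaling. With ERCC scaling the typical gene stood at 0.35 at 0 h and -0.38 at 6 h, so they may depend on the scaling. Without a turn of sign, the difference also passed for MT-CO2 against 3 h (-0.22) and, against 6 h, for STRA6 (-1.05), PLXNA2 (-0.86), DOK4 (-0.87), RPS29 (-2.22), MT-CO2 (-0.22) and GAPDH (-0.23).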

How the results depend on the processing

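ERCC scaling gave 2820 calls at 0 h, 5356 at 6 h of actinomycin D and 3254 for the difference between lines, and it turned the sign of ATP5PB (0.11), YTHDC1 (0.060), MYCN (0.013), GAPDH (0.0099) and ACTB (0.027), which follows from its shift of the typical gene. With the length trend removed METTL3 was at -0.0074 and EML5 at -0.021. Leaving out 1 library gave 860 to 930 calls at 0 h, 1245 to 1417 at 3 h, 1529 to 1857 at 6 h and 421 to 473 for the difference between lines; of the 1428 calls at 0 h, 541 (37.9%) passed in all 4 such fits. Those fits assume that the lone library varies like the other groups. Over these fits RPS29 ran from -3.12 to 0.68, the latter without 3-day replicate 1, METTL3 from -0.030 to 0.16, negative without 3-day replicate 1 or 6-day replicate 2, and CDKN1A from -0.024 to 0.28, negative without 6-day replicate 1; the cause was not tested. With the replicate number as a block the counts were 1477, 1985, 2268 and 540, and 2098 with the block in the 4 libraries only. The numbers did not pair the samples (correlation of same-numbered deviations -0.00146 over 9324 genes). DESeq2, limma-voom, the other scalings and filters, and edgeR without a separate dispersion trend were run for the 4 counts of calls and the 101 genes that the rule named. The library subsets were run at 0 h and for the difference between lines only, and list members named beyond the rule were followed only with ERCC scaling and with a library left out. Apart from the exceptions given, these alternatives turned no sign of the 0 h difference among the 101 genes and left the 4 counts within 1.5 times of those reported. Among single named values, the call was lost for 6 with DESeq2, 10 with limma-voom, 7 with library size only, 8 with the length trend removed and 26 with ERCC scaling. The share of higher genes was 44.6% of 1978 calls with the 4 libraries only and 43.6% of 2034 with the 8 Kelly libraries at 0 h. With 2 libraries a group, small changes and genes of low count limit what could be called.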
